A study of Mus musculus with 30 samples.

Results

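Transcripts of 10 genes that mark neutrophils (S100a8, S100a9, Retnlg, Csf3r, Cxcr2, Mmp8, Mmp9, Ngp, Camp and Ltf) were followed through all 30 libraries of a mouse series on kidney and pancreas. The genes were taken by name, but with earlier results of these data known. Each had a row in both tables of gene levels, which hold 19468 rows for kidney and 19685 rows for pancreas. C57BL/6 mice received doxycycline at 0.2 mg/ml in their drinking water for 7 days, the agent that switches on the reprogramming factors. Poly(A) RNA of each tissue was sequenced from 5 mice of each of 3 genotypes, and levels were deposited as FPKM, fragment counts divided by transcript length and by the mapped fragments of the library. In kidney the genotypes were i4F (the inducible factors alone, with the genotype field reading i4F_WT), i4F Ink4a/Arf KO and i4F p53 KO. In pancreas they were i4F, i4F Ink4a/Arf KO and a group whose label reads p53 KO and names no i4F. All groups received doxycycline, so no group without it enters the comparisons, and the labels name no promoter for the factors and no cell type to which a deletion is limited.

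Neutrophils are short-lived granulocytes that are made in the bone marrow, circulate in blood and enter tissue during inflammation. Their granules are filled in order during maturation: primary granule enzymes such as Mpo and Elane are transcribed in marrow precursors, secondary granule proteins such as Ngp, Camp and Ltf in the next stages, and gelatinase granule proteins such as Mmp9 later. A blood neutrophil has largely stopped transcribing granule genes, while it carries abundant S100a8 and S100a9 RNA and the receptors Csf3r and Cxcr2. None of the genes is limited to neutrophils: monocytes and stressed squamous keratinocytes also make S100a8 and S100a9, macrophages make Mmp9, and glandular epithelia make Ltf.

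The genes lie on 6 chromosomes of the mouse build GRCm38 (positions from GENCODE M21), and all are protein-coding. S100a8 (chr3:90668978-90670035, plus strand) and S100a9 (chr3:90692632-90695721, minus strand) are neighbours with 22596 bases between them. Camp (chr9:109847379-109849617, minus strand), Ngp (chr9:110419747-110423012, plus strand) and Ltf (chr9:111019271-111042767, plus strand) follow each other on chromosome 9, with gaps of 570129 and 596258 bases. Mmp8 lies far from them on the same chromosome (chr9:7558456-7568485). The others are Retnlg (chr16:48872621-48874496), Csf3r (chr4:126024550-126044440), Cxcr2 (chr1:74153989-74161246) and Mmp9 (chr2:164940780-164955850), all on the plus strand.

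Promoter sequences from RefSeq (GRCm38.p6) matched 9 of the 10 genes, and the 250 bases before each RefSeq start site were searched for motifs. The RefSeq start lies inside the GENCODE gene for Csf3r and Cxcr2, by 109 and 5 bases. It also does so for S100a8, Ngp, Camp and Ltf, by 93, 61, 161 and 21 bases, and their sequences are printed only up to the GENCODE start. Those of 5 genes are shown because their transcripts define the patterns described further on: S100a8 and S100a9 kept similar levels in the libraries where both were above 5 FPKM, Ngp and Camp moved together apart from them, and Ltf parted from Ngp and Camp in the pancreas. Capitals mark matches, on either strand, to TATAAA (the TATA box; TTTATA on the other strand), to TTNCNNAA (the form of a C/EBP site; TTNNGNAA on the other strand) and to GAGGAA (the core of PU.1 and other ETS factor sites; TTCCTC on the other strand). The stretches printed are S100a8 chr3:90668821-90668977 (plus strand), S100a9 chr3:90695722-90695971 (minus strand), Ngp chr9:110419558-110419746 (plus strand), Camp chr9:109849618-109849706 (minus strand) and Ltf chr9:111019042-111019270 (plus strand), each written 5′ to 3′.
S100a8: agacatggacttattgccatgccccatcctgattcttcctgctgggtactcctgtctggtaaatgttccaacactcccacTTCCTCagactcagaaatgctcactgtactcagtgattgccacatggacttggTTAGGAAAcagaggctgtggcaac
S100a9: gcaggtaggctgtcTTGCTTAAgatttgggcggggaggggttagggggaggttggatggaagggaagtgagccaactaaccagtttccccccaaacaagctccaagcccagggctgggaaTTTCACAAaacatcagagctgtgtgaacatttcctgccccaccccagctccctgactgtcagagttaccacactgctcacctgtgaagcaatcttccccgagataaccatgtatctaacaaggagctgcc
Ngp: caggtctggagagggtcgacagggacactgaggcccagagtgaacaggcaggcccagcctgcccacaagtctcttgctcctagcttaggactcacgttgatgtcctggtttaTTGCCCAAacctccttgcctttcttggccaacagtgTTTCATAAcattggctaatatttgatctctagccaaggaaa
Camp: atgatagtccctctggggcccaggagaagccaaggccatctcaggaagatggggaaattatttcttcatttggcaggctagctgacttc
Ltf: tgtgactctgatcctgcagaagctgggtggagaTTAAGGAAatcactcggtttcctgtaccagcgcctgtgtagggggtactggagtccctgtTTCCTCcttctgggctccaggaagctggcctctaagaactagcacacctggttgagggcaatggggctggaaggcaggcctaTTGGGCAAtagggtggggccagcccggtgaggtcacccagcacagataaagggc
A TTNCNNAA match was found in 6 of the 9 promoters (S100a8, S100a9, Retnlg, Mmp8, Ngp and Ltf), against 36.8% of all 32851 promoters of the same length. Ngp held 3 such matches, at 138, 102 and 11 bases before the RefSeq start, the last of them inside the GENCODE gene and so not printed. A GAGGAA match was found in 5 of the 9 (S100a8, Csf3r, Cxcr2, Mmp8 and Ltf), against 23.3% of all promoters. That of Csf3r, 86 bases before the RefSeq start, lies inside the GENCODE gene. S100a8 held the only TATAAA among the 9, 30 bases before its RefSeq start, directly after a TTCCTC and likewise inside the GENCODE gene; 12.4% of all promoters hold one. The Camp window held no match to any of the 3 motifs. These are matches of letters and no measure of binding.

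Some libraries stood apart. Values without the Mpo libraries and without the Clps libraries are given where those fits could be made, and no fit left out all female pancreases. In kidney Trp53 was lower in i4F p53 KO (4.90 to 10.1 FPKM) than in i4F (14.8 to 20.3). In the pancreas libraries labelled p53 KO it was 6.65 to 24.8 against 1.64 to 6.99 in i4F, so not lower as deposited. On that scale 91.2% of all genes were called higher in those libraries. After median-of-ratios scaling, explained below, Trp53 was not lower either. All 5 tested targeted and induced genes, Trp53 among them, then had differences from i4F above 0. What this means for the label was not tested. Pou5f1, one of the induced factors, was at 24.6 to 98.2 FPKM in those 5 libraries against 0 to 1.14 in i4F. In pancreas the primary granule genes Mpo and Elane were at 1 FPKM or more in 3 libraries only, 1 of each genotype: the one labelled p53 KO replicate 1 (Mpo 28.1, Elane 27.3), i4F Ink4a/Arf KO replicate 1 (3.56 and 3.18) and i4F replicate 4 (3.34 and 2.65). In kidney i4F p53 KO replicates 2, 3 and 4 and i4F replicate 5 held the pancreatic transcript Clps at 191 to 220 FPKM, against at most 19.98 in the other 11 libraries. Xist above 1 FPKM marks as female, in kidney, replicates 4 and 5 of i4F and replicate 1 of i4F Ink4a/Arf KO, and in pancreas replicates 3, 4 and 5 of i4F and again replicate 1 of i4F Ink4a/Arf KO. In kidney 11539 to 12473 genes reached 1 FPKM; in pancreas i4F and i4F Ink4a/Arf KO libraries held 6596 to 9852, and those labelled p53 KO 10507 to 13194. Genes such as Cela1, Cpa1 and Prss2 are listed at 0 in single pancreas libraries and at high levels in others, so a listed 0 can be a failed estimate.

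**Figure D1:**
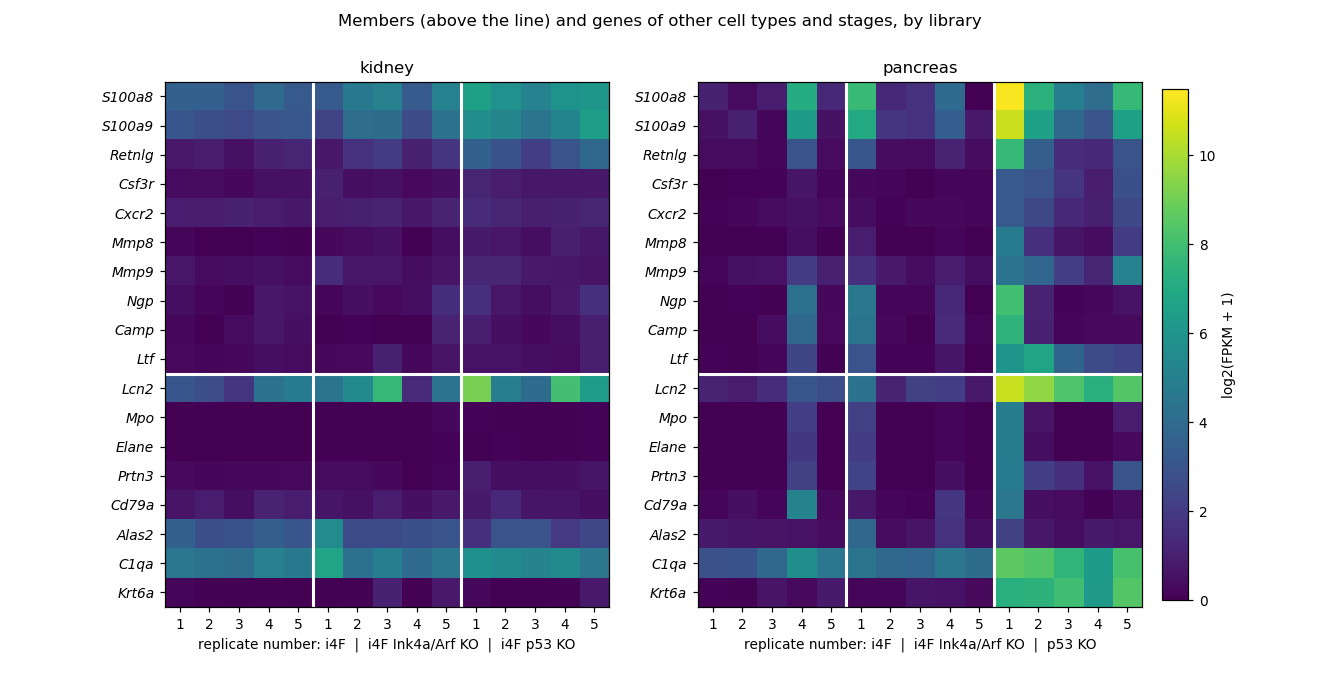
Levels of the 10 genes (above the white line) and of marker genes of other cells (below it) in all 30 libraries, as log2(FPKM + 1), with libraries grouped by tissue and genotype. The kidney i4F p53 KO libraries share a band of S100a8, S100a9 and Retnlg; in pancreas p53 KO replicate 1, i4F Ink4a/Arf KO replicate 1 and i4F replicate 4 show S100a8, S100a9, Ngp, Camp, Mpo and Elane together.

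In the kidney of i4F p53 KO mice S100a8, S100a9 and Retnlg were higher than in i4F mice, with the 5 mice of each group fully separated, as for 0.845% of all genes tested in this direction. S100a8 and S100a9 encode the subunits of calprotectin, a calcium- and zinc-binding protein that fills the neutrophil cytosol, and Retnlg encodes a secreted resistin-like protein of granulocytes. Each of the 3 rose more than 4 times on the log2(FPKM + 1) scale, the scale of every fold change given here, which understates changes near 1 FPKM. Of the 4 genes that passed the filter on low values (1 FPKM or more in 5 or more kidneys), 3 had an adjusted p under 0.05 (limma with Benjamini-Hochberg adjustment over all 12431 genes tested) and all 3 were higher; over all genes 0.257% were called, and 0.0885% were called higher. The median difference of the 4 was 2.31, beside 0.03 over all genes tested. In bulk tissue fewer cells of a type and less RNA per cell cannot be told apart, here and in every result that follows.

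S100a8 was at 92.1, 56.0, 32.97, 58.8 and 66.9 FPKM in i4F p53 KO replicates 1 to 5. In i4F it was at 10.9, 10.6, 7.04, 14.1 and 8.59 FPKM. The lowest p53 KO kidney, replicate 3, stood above the highest i4F kidney by more than the whole spread of i4F. The means were 61.4 ± 21.3 against 10.2 ± 2.68 FPKM (SD, n = 5 each), a log2 difference of 2.43 (SE 0.37, adjusted p = 0.0128, limma). Without i4F replicate 3 it was 2.32 and missed the threshold (adjusted p = 0.0557, limma).

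S100a9 was at 49.96, 36.6, 20.5, 35.8 and 86.5 FPKM in i4F p53 KO and at 7.33, 5.69, 4.76, 7.11 and 7.58 FPKM in i4F. The groups did not overlap, and replicate 3 was again the lowest of its group. The log2 difference was 2.51 (SE 0.40, adjusted p = 0.0199, limma). It missed the threshold without i4F p53 KO replicate 1 or 4 or without i4F replicate 2, 3 or 5, with an adjusted p of 0.0503 to 0.0706 (limma). In 14 of the 15 kidneys S100a8 stood above S100a9, by at most 2.14 times; the exception was i4F p53 KO replicate 5, at 0.773 times. FPKM are per length, so these levels can be set side by side.

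Retnlg was at 10.9, 6.39, 3.34, 6.92 and 13.5 FPKM in i4F p53 KO and at 0.735, 0.917, 0.448, 1.082 and 1.26 FPKM in i4F. It had the smallest p of the 3, with a log2 difference of 2.18 (SE 0.30, adjusted p = 0.0063, limma), and ranked 7th of 12431 genes by p. Retnlg amounted to 6.36% to 20.1% of S100a8 across the kidneys. It was highest against S100a8 in i4F p53 KO replicate 5, the library in which S100a9 also exceeded S100a8.

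The receptors were low in kidney. Cxcr2, the receptor for the CXC chemokines that draw neutrophils into tissue, was at 1.56, 1.27, 0.957, 1.078 and 1.31 FPKM in i4F p53 KO and at 0.825, 0.876, 1.05, 0.839 and 0.655 FPKM in i4F. Replicate 3 of i4F p53 KO lay inside the i4F range and the other 4 above it, and the difference of 0.27 (SE 0.10) had an adjusted p of 0.265 (limma). Csf3r, the receptor for the granulocyte growth factor G-CSF, did not pass the filter. Its level was 0.647 to 1.30 FPKM in i4F p53 KO against 0.181 to 0.444 in i4F, with no overlap. The share of genes so separated without the filter was not computed. Without a filter on low values its difference was 0.47 (adjusted p = 0.155, limma).

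The proteases and granule proteins were near or below 1 FPKM in kidney. Mmp8, the neutrophil collagenase, was at 0.789, 0.635, 0.350, 0.943 and 0.694 FPKM in i4F p53 KO and at 0.149, 0.0163, 0.0141, 0.0952 and 0.0587 FPKM in i4F. The groups did not overlap, though the share of genes so separated without the filter was not computed. Without the filter Mmp8 was called higher (0.65, SE 0.10, adjusted p = 0.0299, limma), where 0.113% of 19466 genes were called. Mmp9, gelatinase B, had means of 0.923 against 0.378 FPKM. It overlapped between the groups, with 4 of 5 p53 KO kidneys above every i4F kidney.

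The secondary granule genes followed less closely. Ngp, a granule protein of the cystatin family, was at 1.97, 0.623, 0.355, 0.714 and 2.02 FPKM in i4F p53 KO, with 4 of 5 above every i4F kidney. Camp, the cathelicidin antimicrobial peptide, ranged from 0.181 to 0.948 FPKM there and from 0 to 0.685 in i4F, with 2 of 5 above every i4F kidney. Ltf, the iron-binding lactotransferrin, ranged from 0.252 to 0.939 FPKM there and from 0.151 to 0.352 in i4F. None of Mmp9, Ngp, Camp and Ltf passed the filter, and without it none was called (adjusted p = 0.356, 0.405, 0.718 and 0.517, limma).

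**Figure D2:**
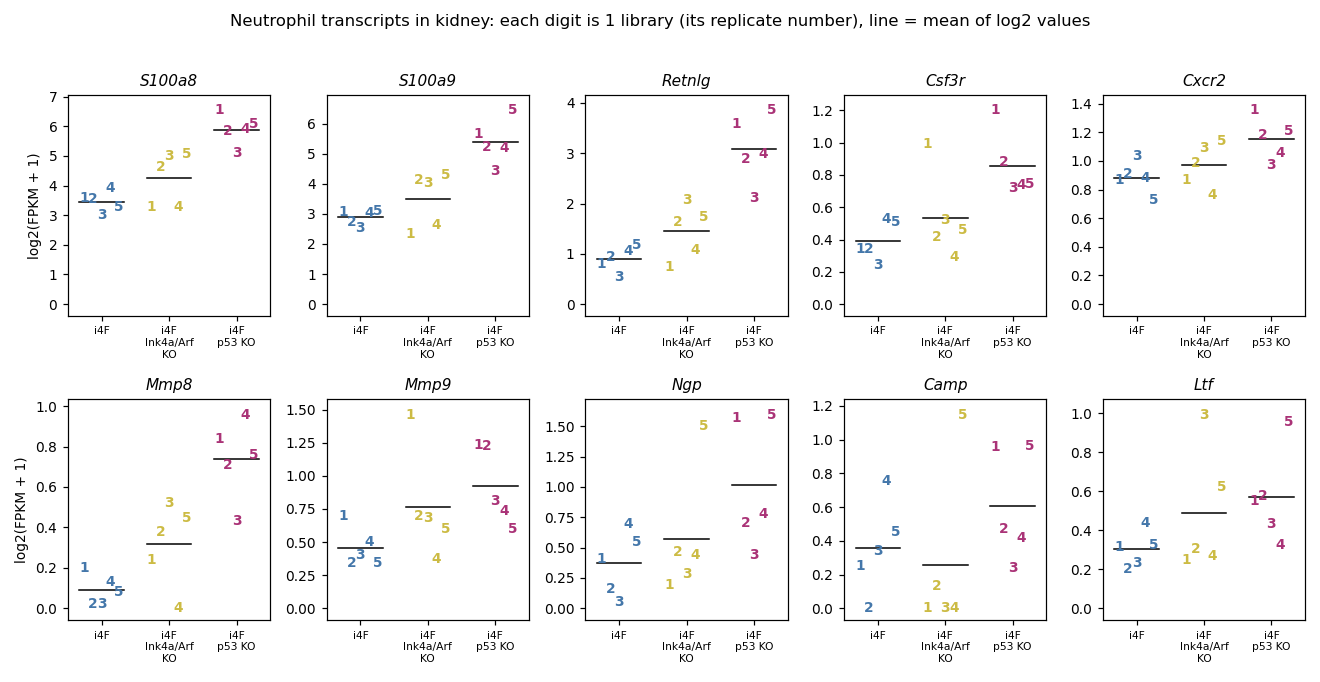
Levels of each of the 10 genes in the 15 kidney libraries as log2(FPKM + 1), by genotype; digits are replicate numbers and the black line is the mean of the log2 values. S100a8, S100a9 and Retnlg separate all 5 i4F p53 KO kidneys from all 5 i4F kidneys, while i4F Ink4a/Arf KO replicates 2, 3 and 5 lie between them.

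Values of other cells moved with this comparison. The 4 libraries with Clps above 100 FPKM are 3 of the 5 i4F p53 KO kidneys and 1 i4F kidney. Without them, a choice made after seeing the data, S100a8 rose by 2.81 (adjusted p = 0.0314), S100a9 by 3.22 (0.0224) and Retnlg by 2.88 (0.0055, all limma), where 2.22% of all genes were called. The 13 macrophage and monocyte markers summed to 120 to 309 FPKM in i4F p53 KO and 108 to 188 in i4F, and 0 of the 11 tested were called (median difference 0.67, 8 of 11 above 0); their part in the result was not tested. The 10 lymphocyte markers summed to 1.89 to 7.88 against 5.17 to 8.55 FPKM. Erythroid and platelet markers summed to 146 to 487 FPKM in i4F p53 KO and 435 to 814 in i4F, with 0 of 7 called and 1 of 7 differences above 0 (median -0.80). Squamous keratinocyte markers summed to 2.06 to 97.6 against 0.382 to 32.8 FPKM, with 0 of 2 called and both differences above 0 (median 1.30). Sprr1a reached 92.9 FPKM in i4F p53 KO, against 24.9 as the highest level of i4F, but its medians were 2.26 and 2.69 FPKM. The part of these cells in the neutrophil transcripts was not tested. Kidney epithelial markers summed to 7359 to 39097 FPKM in i4F p53 KO and 22390 to 82278 in i4F, with 0 of 10 called. The 8 primary granule and precursor genes summed to at most 1.05 FPKM in any i4F p53 KO kidney, and Mpo was at 0.0934 FPKM or less in every one of them.

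Other genes of the neutrophil lists shared the direction but rarely the call. Of 6 tested genes of mature neutrophils outside the 10, 1 was called higher, Stfa2l1, a stefin of granulocytes, at 1.15 to 2.85 FPKM against 0 to 0.501 (1.25, SE 0.19, adjusted p = 0.0128, limma). Lrg1, a secreted glycoprotein also induced in inflamed tissue, was at 3.64 to 65.1 FPKM against 2.93 to 4.60 (2.28, adjusted p = 0.0788), and G0s2, a lipase inhibitor, at 26.1 to 45.8 against 17.2 to 46.6. Of 6 tested secondary granule genes 0 were called, with all 6 differences above 0 (median 1.13). Lcn2, a siderophore-binding protein that injured kidney tubules also secrete, was at 561, 29.2, 15.2, 268 and 80.3 FPKM in i4F p53 KO and at 7.43, 5.61, 2.30, 18.9 and 24.8 in i4F (3.19, adjusted p = 0.221). Replicate 1 was the highest and replicate 3 the lowest of the i4F p53 KO kidneys in both Lcn2 and S100a8.

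The ligands and partners that draw neutrophils into tissue did not pass the test in kidney. Cxcl1, a chemokine ligand of Cxcr2 and the only one of 6 listed ligands that passed the filter, was at 0.454 to 14.9 FPKM in i4F p53 KO and 0.133 to 1.01 in i4F (1.27, adjusted p = 0.308, limma). None of 6 tested adhesion genes was called; Icam1, an endothelial ligand of neutrophil integrins, was at 10.5 to 37.0 FPKM against 8.67 to 15.4 (adjusted p = 0.284). None of 6 NADPH oxidase subunits, which make the oxidative burst, and none of 3 receptors of S100a8 and S100a9 was called.

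Against i4F Ink4a/Arf KO kidneys the same 3 genes separated all 5 i4F p53 KO mice, and 1 passed the test. Retnlg was at 0.659, 2.09, 3.17, 1.10 and 2.33 FPKM in i4F Ink4a/Arf KO, and its highest value there lay just under the lowest i4F p53 KO value, 3.34. Its difference was 1.64 (SE 0.30, adjusted p = 0.0407, limma), where 0.265% of all genes were called and 0.105% were called higher. S100a8 was higher by 1.64 (adjusted p = 0.0731) and S100a9 by 1.91 (adjusted p = 0.0605), neither past the threshold; 1.92% of genes were separated in this direction. The call of Retnlg depends on single settings: without the Clps libraries all 3 were called (7.14% of all genes were), and with no filter on low values none was (Retnlg adjusted p = 0.0767, limma; 0.0616% of all genes were). This comparison and the previous one share the i4F p53 KO libraries.

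Between i4F Ink4a/Arf KO and i4F kidneys limma called 0 of 12431 genes (398 at an unadjusted p under 0.05), members included. S100a8 was at 8.68, 23.8, 30.7, 8.73 and 32.4 FPKM in i4F Ink4a/Arf KO. Replicates 2, 3 and 5 stood above every i4F kidney and replicates 1 and 4 within the i4F range. S100a9 was at 4.05, 16.3, 15.5, 5.19 and 18.4 FPKM, with replicates 2, 3 and 5 again above every i4F kidney, replicate 4 within the i4F range and replicate 1 below every i4F kidney. The difference of S100a8 was 0.79 (95% interval 0.01 to 1.57, adjusted p = 0.997). Replicate 1 carried other genes of the list: Csf3r was at 0.989 and Mmp9 at 1.76 FPKM there, above the other 4 libraries, and so were the macrophage markers (summed 446 FPKM) and the lymphocyte markers (33.1 FPKM); their part in these values was not tested.

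In pancreas most of the 10 genes were higher in the libraries labelled p53 KO than in i4F, in a comparison in which nearly all genes were. As deposited 6 of 8 tested genes were called higher, where limma called 93.4% of 10781 genes and 91.2% higher, and the median difference over all genes was 1.58; read against that background, the count of 6 is no result about these genes. FPKM are relative within a library, and the 11 acinar markers, digestive enzymes and their cofactors, summed to 1495 to 216413 FPKM in the libraries labelled p53 KO against 215291 to 383844 in i4F. After median-of-ratios scaling within the tissue, which divides each library by its typical ratio to all libraries and brings the median difference over all genes to 0.03, 3 of the 8 were called higher: Cxcr2, Mmp9 and Ltf. There 66% of all genes were called and 34.9% were called higher. Cxcr2 entered these tests only through the libraries labelled p53 KO. The median difference of the 8 was 2.5 as deposited and 1.15 scaled.

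Cxcr2 reached 1 FPKM only in the 5 libraries labelled p53 KO, so it passed the filter only through them. Its separation and its calls in comparisons with them therefore give no independent support. Cxcr2 was at 8.39, 4.64, 1.497, 1.04 and 4.65 FPKM in the libraries labelled p53 KO and at 0.0957, 0.134, 0.257, 0.448 and 0.278 FPKM in i4F. All 5 stood above every i4F pancreas, as deposited and scaled, as did 73% and 24.2% of all genes. The scaled difference was 0.72 (SE 0.14, adjusted p = 0.000301, limma) and the deposited one 1.81 (SE 0.31, adjusted p = 2.9e-05).

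Csf3r behaved like Cxcr2, at 8.25, 6.66, 2.27, 0.831 and 6.10 FPKM against 0.0287 to 0.554 in i4F. It did not pass the filter; without one it was called higher as deposited (2.09, adjusted p = 0.0001, limma), where 75.3% of genes were called. As deposited, replicate 4 of the libraries labelled p53 KO was the lowest in both receptors and replicate 1 the highest. Scaled, Cxcr2 was lowest in replicate 3, at 0.712 against 0.797 in replicate 4. Replicate 4 also held the highest summed acinar markers of that group.

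S100a8 was at 2699.7, 167, 29.7, 16.2 and 206 FPKM in the libraries labelled p53 KO, at 1.06, 0.257, 0.831, 136 and 1.45 in i4F, and in the i4F Ink4a/Arf KO pancreases at 224, 1.49, 2.07, 15.5 and 0. The groups overlapped through i4F replicate 4 and i4F Ink4a/Arf KO replicate 1, libraries that also hold Mpo and Elane. The difference from i4F was 4.98 (SE 1.54, adjusted p = 0.0053, limma) as deposited and 3.29 (95% interval -0.05 to 6.64, adjusted p = 0.0761) scaled. S100a9 followed S100a8, at 1514.9, 93.3, 13.8, 7.30 and 91.5 FPKM in the libraries labelled p53 KO, with 4.42 (adjusted p = 0.0064) and 2.80 (adjusted p = 0.0861). In the 8 pancreases with both above 5 FPKM S100a8 was 1.56 to 2.25 times S100a9.

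Leaving out the 3 libraries with Mpo at 1 FPKM or more, a choice made after seeing the data, narrowed the spread and left 12 libraries and 8909 genes, of which 4 of the 10 genes passed the filter. Cxcr2, Ltf, Ngp and Camp were not among the 4 and have no test without these libraries. The 3 libraries left out held the highest S100a8 of their groups, and the i4F one overlapped the libraries labelled p53 KO. Calls made without them rest on that choice and give no independent support. S100a8 then rose by 5.15 as deposited and by 3.49 scaled (adjusted p = 0.0021, limma), S100a9 by 2.86 scaled (adjusted p = 0.0013), Retnlg by 0.82 scaled (adjusted p = 0.0119) and Mmp9 by 1.14 scaled (adjusted p = 0.0219). All 4 were called on both scales, where 91.1% of genes were called as deposited and 63.4% scaled, 27.5% of all genes being called higher when scaled. As deposited, the lowest S100a8 of the 4 remaining libraries labelled p53 KO was 16.2 FPKM and the highest of the 4 remaining i4F libraries 1.45. The i4F library left out, replicate 4, held 136 FPKM. The share of genes separated in these 12 libraries was not computed.

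Retnlg was at 209, 10.3, 1.77, 1.43 and 6.62 FPKM in the libraries labelled p53 KO, at 6.84 in i4F replicate 4 and at 0.147 to 0.278 in the other 4 i4F libraries. With all libraries its difference was 2.54 (adjusted p = 0.0173, limma) as deposited and 1.24 (adjusted p = 0.220) scaled. Mmp8, which did not pass the filter, was at 25.1, 1.90, 0.587, 0.285 and 3.16 FPKM against 0 to 0.357 in i4F. Replicate 1 was again the highest of its group in both.

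Mmp9 had another order of libraries. It was at 19.6, 12.5, 3.41, 1.30 and 33.1 FPKM in the libraries labelled p53 KO and at 0.114, 0.446, 0.464, 2.99 and 1.01 in i4F. Replicate 5, not replicate 1, was the highest, and replicate 4 lay below i4F replicate 4. Its difference was 2.46 (SE 0.57, adjusted p = 0.000542, limma) as deposited and 1.06 (SE 0.41, adjusted p = 0.0318) scaled.

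**Figure D3:**
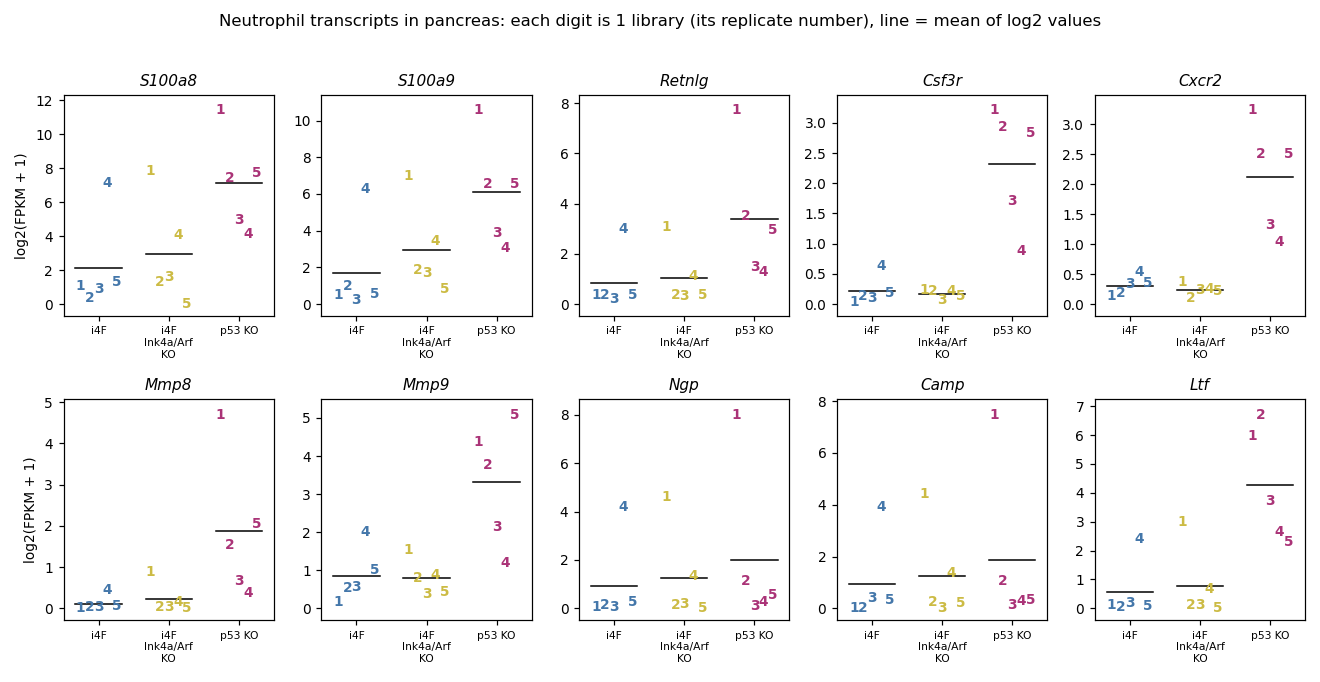
Levels of each of the 10 genes in the 15 pancreas libraries as log2(FPKM + 1), by genotype; digits are replicate numbers, the black line is the mean of the log2 values, and genes listed at 0 sit at 0. Ngp and Camp are high in replicate 1 of the p53 KO label, i4F Ink4a/Arf KO replicate 1 and i4F replicate 4 and low in most others. Csf3r and Cxcr2 stand above every other pancreas library in all 5 libraries labelled p53 KO, though replicate 4 is low in both.

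The 3 secondary granule genes parted in pancreas. Ngp was at 259, 1.19, 0.0711, 0.201 and 0.471 FPKM in the libraries labelled p53 KO and at 17.2 in i4F replicate 4, with at most 0.189 in the other i4F libraries. Camp took the same course, at 178, 1.06, 0.101, 0.227 and 0.242 FPKM with 13.9 in i4F replicate 4. Camp was at most 0.322 FPKM in the other i4F libraries. Set against i4F without its replicate 4, replicate 2 of the p53 KO label stood above every i4F library in both genes, replicates 4 and 5 in Ngp only, and replicate 3 in neither. The differences of 1.07 and 0.93 as deposited (adjusted p = 0.434 and 0.468, limma) and 0.38 and 0.29 scaled (adjusted p = 0.800 and 0.834) did not pass the test. Their intervals are wide, from -2.30 to 3.07 for Ngp and -2.20 to 2.79 for Camp when scaled.

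Ltf was at 61.7, 104, 12.1, 5.24 and 3.91 FPKM in the libraries labelled p53 KO, at 0.0922, 0.0362, 0.137, 4.24 and 0.0485 in i4F and at 6.96, 0.0869, 0.0882, 0.574 and 0 in i4F Ink4a/Arf KO. Its highest level was in p53 KO replicate 2, where Ngp was at 1.19 FPKM. Ltf rose by 3.70 as deposited (SE 0.79, adjusted p = 0.00027, limma) and by 2.42 scaled (SE 0.77, adjusted p = 0.0127). In the libraries labelled p53 KO the ratio of Ltf to Ngp was 0.239 in replicate 1 and 8.31 to 171 in replicates 2 to 5, while it was 0.247 in i4F replicate 4 and 0.301 in i4F Ink4a/Arf KO replicate 1.

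Set against S100a8, Ngp and Camp differed widely between the 8 pancreas libraries with S100a8 above 5 FPKM. Their summed level was 16.2% of S100a8 in replicate 1 of the p53 KO label, 22.8% in i4F replicate 4, and 19.3% and 20.1% in i4F Ink4a/Arf KO replicates 1 and 4. In replicates 2 to 5 of the p53 KO label it was 1.35%, 0.579%, 2.64% and 0.346%. The other 6 libraries with a ratio held little of either, with S100a8 at 0.257 to 2.07 FPKM, and did not follow whether Mpo was present: it was 4.56%, 37.1%, 45.01% and 29.5% in i4F replicates 1, 2, 3 and 5 and 19.4% and 6.71% in i4F Ink4a/Arf KO replicates 2 and 3. Kidney libraries ran from 0.714% to 9.68% (median 3.15%), with 1.63% to 4.44% in i4F p53 KO. Ngp and Camp kept close to each other, at 0.939 to 1.4995 times in the 6 libraries with both at 1 FPKM or more. These ratios describe single libraries and were not tested.

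**Figure D4:**
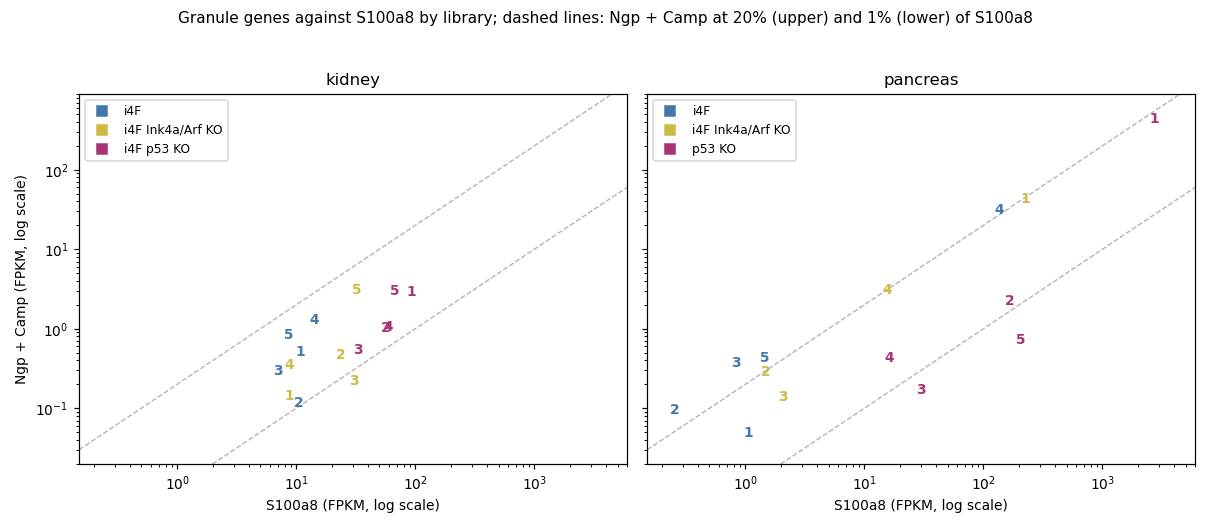
Summed Ngp and Camp against S100a8 in FPKM, both on log axes, 1 point per library labelled with its replicate number; lines mark 20% and 1% of S100a8, and the library with S100a8 listed at 0 is left out. The 3 pancreas libraries with Mpo lie near the 20% line at 16.2% to 22.8%, and replicates 2 to 5 of the p53 KO label lie at 0.346% to 2.64%; pancreas libraries with S100a8 at 2.07 FPKM or less scatter from 4.56% to 45.01%.

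The 3 libraries with Mpo also differed in markers of other cells. The one labelled p53 KO replicate 1 and i4F replicate 4 held summed lymphocyte markers of 84.5 and 85.6 FPKM, with the B cell gene Cd79a at 22.8 and 34.0 FPKM. In i4F Ink4a/Arf KO replicate 1 Cd79a was at 0.666 FPKM, and Alas2, the erythroid heme synthesis enzyme, was at 12.95 FPKM against 0.295 to 0.782 in i4F. The part of other cells in the neutrophil transcripts of these 3 libraries was not tested.

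Genes of other roles were also called higher in the libraries labelled p53 KO, in a comparison where 91.2% of all genes were as deposited and 34.9% scaled, so counts on the deposited scale are near the background. Of the tested genes of mature neutrophils 9 of 10 were called higher as deposited and 7 of 10 scaled, among them Clec4e, a receptor for microbial and dead-cell glycolipids, at 1.39 to 6.56 FPKM against 0 to 0.133 (1.11 scaled, adjusted p = 4.4e-07, limma). Of the other secondary granule genes 5 of 5 were called higher on both scales; Lcn2 was at 149 to 1490 FPKM against 0.868 to 7.37 (5.16 scaled), and Lyz2, a lysozyme that macrophages also make, at 245 to 1823 against 15.3 to 218 (2.42 scaled). Of 2 tested primary granule and precursor genes, Prtn3 was called higher as deposited and not scaled (0.93, adjusted p = 0.187), and Gfi1 was lower on both scales. Cxcl5 and Cxcl1, ligands of Cxcr2, were called higher on both scales; Cxcl5 was at 5.09 to 31.2 FPKM against 0 to 0.0904 (2.71 scaled, adjusted p = 2.8e-08). All 6 NADPH oxidase subunits were called higher on both scales, and 5 of 6 adhesion genes scaled, led by the integrin Itgam (2.51).

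Markers of other cells that share some of these transcripts were higher in the same libraries. Macrophage and monocyte markers summed to 403 to 1836 FPKM in the libraries labelled p53 KO and 28.3 to 263 in i4F, and 13 of 13 were called higher as deposited, where 91.2% of all genes were, and 12 of 13 scaled, where 34.9% were. Squamous keratinocyte markers summed to 308 to 974 FPKM, and all 5 tested were called higher on both scales; Krt6a was at 150, 173, 248, 72.6 and 342 FPKM against 0.054 to 0.758 in i4F. The part of these cells in the levels of S100a8, S100a9, Mmp9 and Ltf was not tested.

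Against i4F Ink4a/Arf KO the libraries labelled p53 KO again had 6 of 8 genes called as deposited, from the same p53 KO libraries. All 6 were called higher, where 93.7% of genes were called. Cxcr2, among them, passed the filter only through the libraries labelled p53 KO. Scaled, 3 of 8 were (Cxcr2 0.77, Mmp9 0.97 and Ltf 2.06; adjusted p = 0.00017, 0.0464 and 0.0280, limma), where 67.7% were called and 34.7% were called higher. Scaled, S100a8 differed by 2.31 (adjusted p = 0.203) and S100a9 by 1.23 (adjusted p = 0.443), against 3.29 and 2.80 from i4F, and Ngp and Camp by -0.12 and -0.25, against 0.38 and 0.29. Without replicate 1 of the p53 KO label 2 genes were called as deposited, of 5 tested. Cxcr2, Ngp and Camp did not pass the filter in that fit, and its share of all genes called is not given here.

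Between i4F Ink4a/Arf KO and i4F pancreases limma called 0 of 10781 genes (36 at an unadjusted p under 0.05). The direction for S100a8, Retnlg and Ltf rests on i4F Ink4a/Arf KO replicate 1: without it their differences turned to -0.39, -0.30 and -0.34, from 0.83, 0.21 and 0.21.

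**Figure D5:**
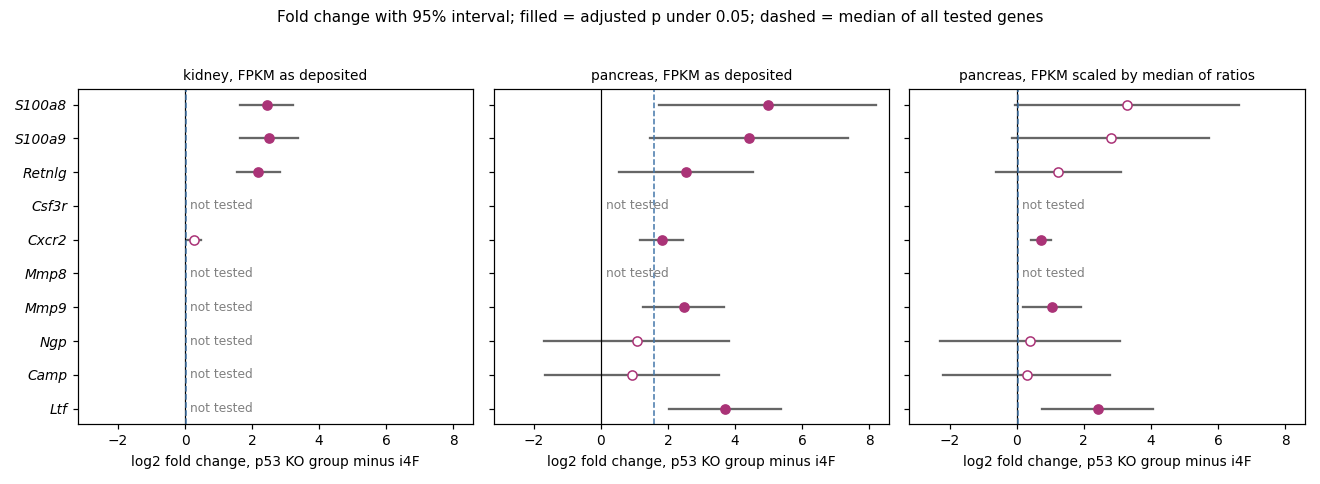
Differences on the log2(FPKM + 1) scale for the genes that passed the filter, with 95% intervals; filled points have an adjusted p under 0.05 and dashed lines mark the median of all genes tested. In kidney S100a8, S100a9 and Retnlg lie between 2.18 and 2.51 for i4F p53 KO against i4F; in pancreas the median line falls from 1.58 as deposited to 0.03 scaled.

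By group median, S100a8 stood highest in the pancreas libraries labelled p53 KO (167 FPKM), followed by kidney i4F p53 KO (58.8), kidney i4F Ink4a/Arf KO (23.8), kidney i4F (10.6), pancreas i4F Ink4a/Arf KO (2.07) and pancreas i4F (1.06). The tables of the tissues are separate, so this order is a description, and no difference between tissues was tested. The first group ranged from 16.2 to 2699.7 FPKM and covers the whole range of the second; kidney i4F Ink4a/Arf KO and kidney i4F overlap, as do the last 2. The pancreas libraries labelled p53 KO had the highest median for 7 of the 10 genes and kidney i4F p53 KO for the other 3. As a share of all FPKM in a library, the 10 genes made up 0.0121% to 0.0356% in kidney i4F p53 KO, 0.0025% to 0.0055% in kidney i4F and 0.0040% to 0.851% in the pancreas libraries labelled p53 KO.

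The genes whose pattern over the 15 kidney libraries was most like the mean of the 4 tested genes were Stfa2l1 (Pearson r 0.883), Chi3l3 (0.881), Pkp2 (0.879), Sbf1 (0.860) and Traf7 (0.859) among 12427 compared. In pancreas, against the mean of 8 genes, they were Marco (0.967), Prtn3 (0.965), Vcam1 (0.923), Fcho1 (0.920) and 1100001G20Rik (0.897) among 10773. The libraries of a tissue share their genotype groups and, for pancreas, the 3 libraries with Mpo, so these values describe likeness over 15 libraries of each tissue. Stfa2l1 and Chi3l3 were the most like the mean of the 4 genes in kidney, where Stfa2l1 was called higher in i4F p53 KO and Chi3l3 was not (1.93, adjusted p = 0.1005, limma).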

How the data were processed

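Gene levels were deposited by the authors as FPKM, 1 table per tissue; per the submitters' processing notes TopHat2 2.0.10, Bowtie 1.0.0, SAMtools 0.1.19, Cufflinks 2.2.1 and FastQC were used with the mouse build mm10, and roles and any scaling between libraries are not given in the sources used here. Per the labels' protocols the libraries were stranded, with RNA integrity numbers of 7.4 to 9.4. Read counts were not used, and the depth per gene is therefore unknown. Each group holds 5 mice, as labelled.

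The 15 libraries of each tissue were fitted together with limma 3.58.1 under R 4.3.3, as log2(FPKM + 1) with a mean-variance trend, keeping genes that reached 1 FPKM in 5 or more libraries. Tests were two-sided, with Benjamini-Hochberg adjustment over all tested genes and a threshold of 0.05. Each fit was repeated after median-of-ratios scaling on the same genes. The procedure was tested on simulated data. The other settings were a pseudocount of 0.1, filters of none and of 5 FPKM, a replicate block, Xist as a covariate, only both groups in the fit, and leaving out each library; leaving out female mice, the Clps libraries or the Mpo libraries was added after seeing the data. The members, the 17 gene lists and the tests were chosen with earlier results of these data known. Genes outside the 10 were named by rule: up to 3 per list, those called with the smallest p and otherwise those with the highest mean, with Mpo, Elane and Lcn2 always, and Cd79a, Alas2, Krt6a and Pou5f1 in part after their values were seen. Ly6g was not used here.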

Additional observations from a re-analysis of the deposited data

Results flagged for a closer look

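Among the 60 combinations of gene, tissue and genotype, 25 held 1 mouse far from the other 4, by Dixon's test at its 95% critical value, which chance alone passes in about 1 of 20 groups. The high values of 1 library are not independent of each other.

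Pancreas accounted for 21 of the 25, all in the 3 libraries that also held Mpo. In the library labelled p53 KO replicate 1 S100a8 was at 2699.7 FPKM (next 206), S100a9 at 1514.9 (next 93.3), Retnlg at 209 (next 10.3), Mmp8 at 25.1 (next 3.16), Ngp at 259 (next 1.19) and Camp at 178 (next 1.06). In i4F replicate 4 S100a8 was at 136 FPKM, S100a9 at 75.0, Retnlg at 6.84, Csf3r at 0.554, Mmp8 at 0.357, Ngp at 17.2, Camp at 13.9 and Ltf at 4.24. In i4F Ink4a/Arf KO replicate 1 S100a8 was at 224 FPKM, S100a9 at 126, Retnlg at 7.34, Mmp8 at 0.856, Ngp at 23.1, Camp at 20.2 and Ltf at 6.96.

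In kidney i4F Ink4a/Arf KO replicate 1 stood apart in Csf3r (0.989 FPKM, next 0.432) and Mmp9 (1.76, next 0.618), and replicate 5 of that group in Ngp (1.82, next 0.378) and Camp (1.22, next 0.0940). Neither was the highest of its group in the other pair of genes. No i4F p53 KO and no i4F kidney was marked for any of the 10 genes.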

How the results depend on the processing

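The number of the 10 genes called in kidney i4F p53 KO against i4F was 3, and 1 to 3 when single libraries were left out (1 without i4F replicate 3). Retnlg passed in all 23 alternative fits that tested it, while the filter of 5 FPKM left it untested. S100a9 was lost without i4F p53 KO replicate 1 or 4 or without i4F replicate 2, 3 or 5. Its adjusted p was at most 0.0706 there (limma), and S100a8 was lost without i4F replicate 3. Against i4F Ink4a/Arf KO the count of 1 became 0 with no filter, with only both groups in the fit and without female mice, and 3 with the Xist covariate and without the Clps libraries, and ran from 0 to 3 over single libraries left out (3 without i4F p53 KO replicate 2); the cause was not tested. In pancreas the count of 6 became 3 after median-of-ratios scaling in both comparisons of the p53 KO label, and 2 against i4F Ink4a/Arf KO when scaled without the 3 Mpo libraries, where 4 genes were tested. Over single libraries left out it ran from 5 to 6 against i4F and from 2 to 6 against i4F Ink4a/Arf KO (2 without p53 KO replicate 1, with 5 tested), and stayed at 0 to 0 for i4F Ink4a/Arf KO against i4F in both tissues.

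Some differences changed sign, none of them called. Scaled, Ngp and Camp turned to -0.12 and -0.25 against i4F Ink4a/Arf KO. For i4F Ink4a/Arf KO against i4F in pancreas, Mmp9 (-0.04) turned to 0.093 scaled, 0.069 with a pseudocount of 0.1, 0.46 with the Xist covariate, and 0.064 and 0.11 (scaled) without the Mpo libraries; Cxcr2 turned to 0.11 with the Xist covariate; and over single libraries left out S100a8 ran from -0.39 to 2.07, Retnlg from -0.30 to 0.74, Ltf from -0.34 to 0.67 and Mmp9 from -0.22 to 0.24, lowest without i4F Ink4a/Arf KO replicate 1 and highest without i4F replicate 4. The Xist covariate takes the sex of the mice into the fit.

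The labels number the mice 1 to 5 in every group and do not say that a number is shared between groups. Same-numbered kidneys of i4F p53 KO and i4F had correlated deviations (r over 0.1) in 3 of 5 pairs, and in the other comparisons in at most 2 of 5. With the replicate block the kidney count against i4F was 2 (S100a8 adjusted p = 0.0598) and against i4F Ink4a/Arf KO 0, while both pancreas counts stayed at 6. FPKM without counts give no error for the low genes of the list, and levels under 1 FPKM are the least certain.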

Other observations

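The female and male mice were not spread evenly over the groups. All 5 kidneys and all 5 pancreases with the p53 KO label had Xist below 1 FPKM, whereas 2 of 5 i4F kidneys and 3 of 5 i4F pancreases were above it. With Xist as a covariate the kidney differences of S100a8, S100a9 and Retnlg between i4F p53 KO and i4F were 2.30, 2.35 and 2.13 (adjusted p = 0.0217, 0.0277 and 0.0127, limma). In pancreas the deposited difference of S100a8 was 7.08 with that covariate.

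Erythroid and platelet markers were high in i4F Ink4a/Arf KO replicate 1 of both tissues, at a sum of 2613 FPKM in kidney and 616 in pancreas, and in neither tissue did any other library of that group reach that sum. The labels do not say whether the same number names 1 mouse in both tissues. In that kidney S100a8 was at 8.68 FPKM, within the range of i4F, and in that pancreas at 224 FPKM.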
